A study of Danio rerio with 6 samples.

Results

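Keratin and desmosome genes build the filament and adhesion system of epithelia. They were read here in GFP-positive cells sorted from zebrafish embryos at the 15 somite stage. The members were the rows whose symbol begins with krt, cyt1, pkp, jup, evpl, dsc2 or dsg, together with a short set of epithelial genes given by name (dspa, dspb, ppl, icn, icn2, agr1, epcam, tp63, grhl1, grhl2a, grhl2b, grhl3, ovol1a and esrp1). The rule found 39 of the 19722 genes of the table. It used no measured value, but the members were chosen with earlier results of these data known. dspb and agr1 had no row under those symbols.

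The cells came from 2 lines, with 3 libraries for each. In Gt(endocard:egfp), whose full name is Gt(SAGFF27C); Tg(4xUAS:egfp), a gene-trap insertion carrying a Gal4 activator switches on egfp through UAS sites, and the label marks endocardial progenitors and possibly a few myeloid cells. Only cells of high GFP were kept for this line, because cardiomyocytes carry the label weakly. In Tg(fli1a:egfp) the fli1a promoter drives egfp in endothelium, endocardium included, and in blood cells. Embryos of both lines were of wild-type genotype, carried their reporter from an outcross to wild-type fish and received no treatment. Each library was made by Smart-seq2, which copies and amplifies full-length polyadenylated RNA. Embryos were de-yolked and dissociated whole before sorting. The paper does not list the cell types of the suspension, and whether skin cells were carried through the sort was not tested. The design text describes the libraries of each line as independent biological replicates.

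Each level given here is the authors' mean for a gene over the libraries of their fit, in CPM, the reads of a gene scaled to the total of its library. Whether and how that total was adjusted is not given in the sources used here. The mean was taken on the log2 scale, so that on the linear scale it is a geometric mean. The sources used here do not name the libraries averaged. They are taken to be those of both lines. A gate for cells of low GFP was also drawn for Gt(endocard:egfp), but the paper states that its analysis used the high-GFP cells. The mean has no error of its own. The authors' comparison of the lines was not used. The difference between the lines was therefore not tested here, and no level is assigned to one line. CPM are not divided by transcript length, so the order of 2 genes is an order of reads and not of molecules. In sorted bulk cells, fewer cells of a type and less RNA per cell cannot be told apart.

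Keratins are intermediate filament proteins, and a filament forms only when a type I chain pairs with a type II chain. Desmosomes anchor these filaments at the cell surface, where desmosomal cadherins bridge neighbouring cells, plakoglobin and plakophilins bind the cadherin tails, and desmoplakin ties them to keratin. In the zebrafish embryo keratins are best known from the enveloping layer, an outer sheet that becomes the periderm, and from the basal epidermis beneath it. Keratins 8 and 18 and their relatives are the filaments of simple epithelia, and are also used in early embryonic tissues outside the skin.

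Several keratin genes had substantial reads in the sorted cells, while most other members lay nearer the level of an ordinary gene. The median level of the 39 members was 4.27 log2 CPM, or 19.3 CPM, against 2.58 log2 CPM (5.98 CPM) over all genes of the table. For the 16 type I and type II keratins it was 109 CPM. For the 23 other members it was 7.75 CPM, and 17 of them lay above the median of all genes. In all, 28 members lay above the median of all genes, and 10 lay in the highest 10% of genes. At or above 1 CPM stood 35 members (89.7%), beside 73.9% of all genes. These were 12 of the 16 type I and type II keratins (75%, near the share of all genes) and all of the 23 other members. Together the members reached 5280 CPM, which was 0.552% of the summed level of the table. Most of this came from few genes. The 5 highest members (krt4, krt18, krt8, cyt1 and jupa) held 74.3% of the summed level, and the 16 type I and type II keratins held 85.3%.

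**Figure D1:**
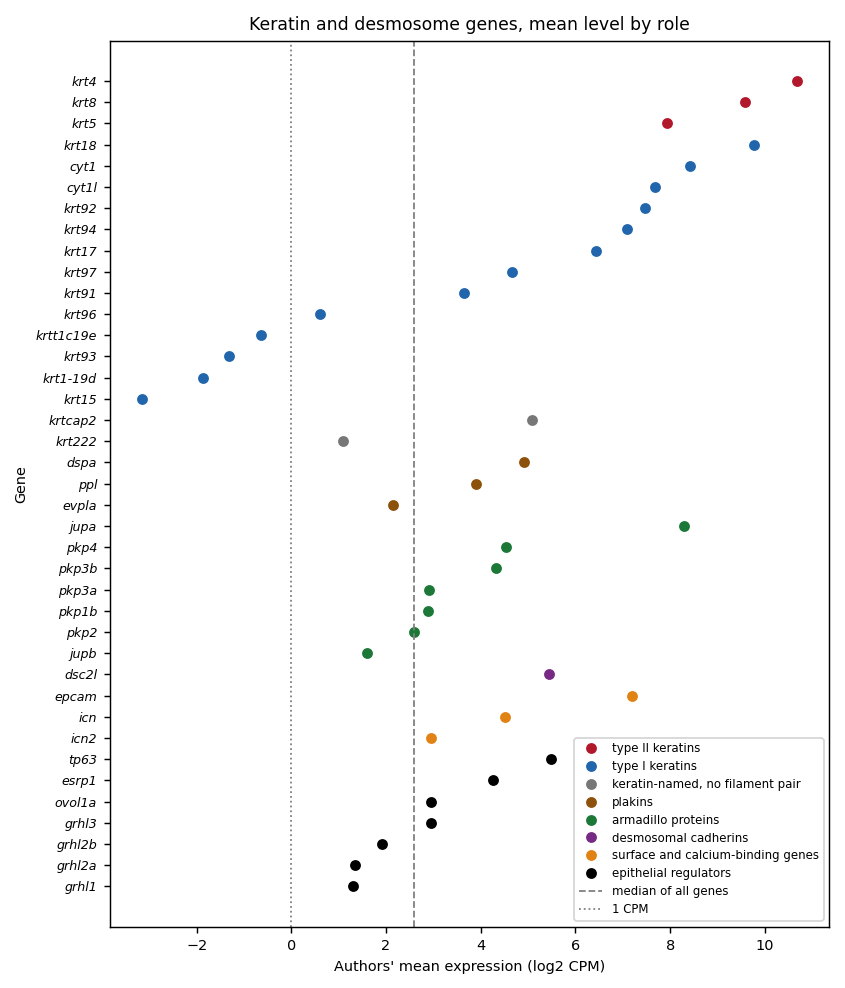
Authors' mean expression of each of the 39 members, in log2 CPM on the x axis, with genes on the y axis grouped and coloured by role. The dashed line is the median of all genes (2.58) and the dotted line 1 CPM; all 3 type II keratins lie right of the dashed line, while the type I keratins run from krt15 at -3.15 to krt18 at 9.77.

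The type II keratins were few and high. krt4, an enveloping layer and periderm keratin, had a level of 1633 CPM (10.67 log2 CPM) and ranked 50th of all genes. krt8, a type II keratin of simple epithelia, had 763 CPM and ranked 145th. krt5, which marks epidermal cells, had 245 CPM and ranked 642nd. The lowest of the type II genes thus still had more reads than 96.7% of all genes.

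The 13 type I keratins spread far more widely, from 0.113 to 874 CPM. krt18, the usual partner of krt8, stood at 874 CPM and ranked 122nd, close to the level of krt8. cyt1 and cyt1l, type I cytokeratins named for the enveloping layer, had 343 and 206 CPM. krt92 followed with 178 CPM, and krt94 with 137 CPM. These 5 genes were in the highest 10% of all genes. At the other end, 4 type I keratins fell under 1 CPM. They were krtt1c19e at 0.643 CPM, krt93 at 0.400 CPM, krt1-19d at 0.272 CPM and krt15 at 0.113 CPM. No other member was under 1 CPM. krt15 had fewer reads than all but 2.35% of the genes. Between these ends stood krt17, krt97, krt91 and krt96. Their levels were 86.5, 25.3, 12.4 and 1.53 CPM.

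Summed over their genes, type I keratins reached 1866 CPM and type II keratins 2640 CPM, a ratio of 0.707. The type II sum came from only 3 genes, and krt4 alone made up 30.9% of the summed level of all members. Since the keratins are a multigene family and the treatment of reads that fit several genes is not given in the sources used here, the split between close copies such as cyt1 and cyt1l is uncertain.

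A pair of members carry a keratin name without being filament partners of this kind. krtcap2, named as a keratinocyte-associated protein and known in mammals as a subunit of the complex that adds sugar chains to new proteins, had 34.0 CPM. krt222, a keratin-like gene, had 2.13 CPM.

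Gene order placed 23 of the members beside another member or a gene that bears a member's name only in current lists, in 7 blocks with at most 2 other protein-coding genes between neighbours. One block holds no filament keratin or desmosome gene, only krtcap2, icn and icn2. Some members that lie side by side had very different levels, while others were alike. These are levels of counted reads. The treatment of reads that fit several genes is not given in the sources used here, and whether close copies lost reads was not tested. In the longest block the order was krt1-19d, krtt1c19e, krt92, cyt1l, cyt1, krt17, krt91 and jupb. Levels there ran from 0.272 CPM at one end to 343 CPM for cyt1, and down again to 12.4 CPM for krt91 and 3.02 CPM for jupb. Within this block the adjacent krt92, cyt1l and cyt1 were all high, at 178, 206 and 343 CPM. A further block held krt93, krt94 and krt15 with jupa. It also held krt98 and krt99, which the table lists under older names and the rule did not reach. In it krt94, at 137 CPM, lay between krt93 at 0.400 CPM and krt98 at 0.402 CPM, and krt15 was the lowest at 0.113 CPM. krt97 likewise stood at 25.3 CPM between krt222 and krt96 at 2.13 and 1.53 CPM.

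Like krt92, cyt1l and cyt1, the genes krt5, krt8 and krt18 lie next to each other and were all high, at 245, 763 and 874 CPM. This block pairs type II genes with a type I gene. krt4 has its own type I neighbour, listed under an older name and now named krt18b, with 58.6 CPM against 1633 CPM for krt4.

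**Figure D2:**
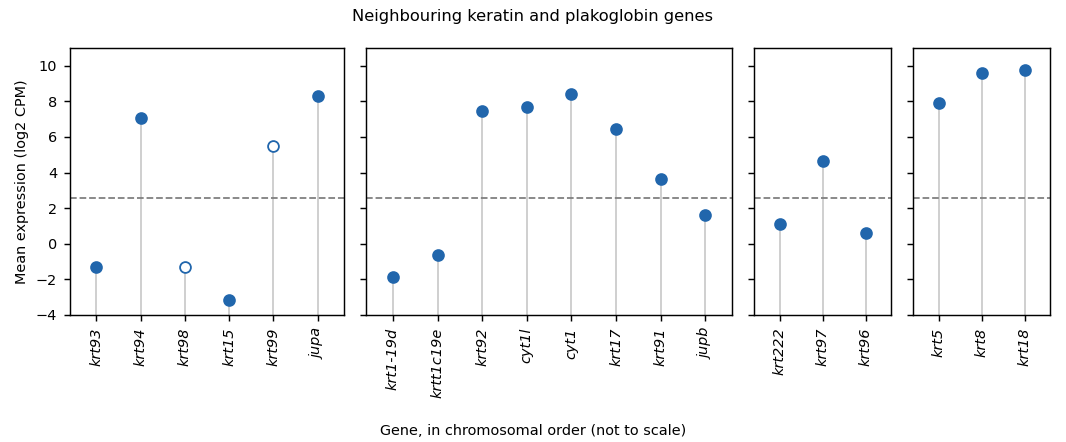
Authors' mean expression in log2 CPM (y axis) of neighbouring genes in 4 blocks, one panel each, with genes in chromosomal order on the x axis and not to scale. Filled points are members, open points are krt98 and krt99, and the dashed line is the median of all genes (2.58); high and low keratins lie side by side in the first panel, whereas krt5, krt8 and krt18 are all high in the last.

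Genes of the desmosome itself were expressed at a lower range than the leading keratins, with 1 exception. jupa, one of the zebrafish genes for plakoglobin, had 312 CPM and ranked 474th. Plakoglobin is also a part of adherens junctions, in endothelium as in epithelium, so it is not particular to desmosomes. Its paralogue jupb had 3.02 CPM, and the reads of jupa were 103 times those of jupb. dsc2l, a desmosomal cadherin of the desmocollin type, had 43.4 CPM. It was the only desmosomal cadherin under the rule. A gene without a symbol in the table, dsg2.1 by its current name, lies next to dsc2l and had 10.2 CPM. dspa, a desmoplakin gene, had 30.2 CPM.

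Among the plakophilins, pkp4 and pkp3b were highest, at 23.2 and 20.1 CPM. pkp4 also acts at adherens junctions. pkp3a, pkp1b and pkp2 had 7.55, 7.33 and 6.06 CPM and so stood close to the median of all genes. The reads of pkp3b were 2.66 times those of its paralogue pkp3a. Each of the 7 armadillo genes (plakoglobins and plakophilins) was above 1 CPM, a level that 73.9% of all genes reached. Of these, 6 were above the median of all genes.

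Periplakin and envoplakin are plakins that link filaments to the membrane and, in mammalian skin, take part in the cornified envelope. Their genes ppl and evpla had 15.0 and 4.44 CPM. Plakins, desmoplakin among them, are very long proteins. In full-length libraries a long transcript gives more reads than a short one from as many molecules. Without a correction for length, the values of ppl, evpla and dspa are thus not directly comparable with those of the short keratin transcripts.

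epcam, a cell adhesion molecule of epithelia, had 147 CPM and ranked 1197th. icn and icn2, which encode small calcium-binding S100 proteins known in fish as ictacalcins, had 22.7 and 7.75 CPM, so that icn had 2.93 times the reads of icn2. agr1, a secretory gene of the anterior gradient family, was found by its current name with 11.5 CPM and was not counted as a member.

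The 7 regulators of epithelial identity were all above 1 CPM and ranged from 2.46 to 44.8 CPM. tp63, the transcription factor of basal epidermis, was highest at 44.8 CPM, above 81.0% of all genes. esrp1, an epithelial splicing regulator, had 19.3 CPM. ovol1a and grhl3, transcription factors of epithelial differentiation, had 7.74 and 7.72 CPM. The other grainyhead-like genes were lower and below the median of all genes, with 3.79 CPM for grhl2b, 2.55 CPM for grhl2a and 2.46 CPM for grhl1.

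Endothelial markers were high in the mean. A list of endocardial markers was not read, and the markers of each line were not checked apart. Of 18 endothelial genes 17 were found, with a median of 233 CPM, and fli1a was highest at 1194 CPM. The lowest was pecam1 at 3.13 CPM, and the other 16 lay above the all-gene median. The 14 red blood genes found, of 16, had a median of 74.9 CPM, and the 10 myocardial genes found, of 11, one of 3.39 CPM. Red blood genes ranged from 1.81 to 335 CPM, and genes of the myocardial list from 0.594 CPM to 145 CPM for gata5. The next highest of that list was tbx20 at 24.3 CPM, and myl7 and nkx2.5 had 2.77 and 1.23 CPM. Whether gata5 and tbx20 are particular to myocardium in these cells was not tested. krt4 thus had a higher mean level than each of the endothelial genes found, and krt18 and krt8 than all of them but fli1a and tal1 (1034 CPM). krt8, at 763 CPM, was close to lmo2 at 738 CPM, and the means have no error. Such orders hold for the mean over both lines and need not hold in either line. The paper reported flt4, scl (tal1) and etv2 as enriched in the Tg(fli1a:egfp) cells, but no significant change for kdrl and cdh5. It also reported the red blood genes gata1a, hbbe3 and hbae5 as higher there, although its qPCR did not bear out gata1a. The orders also depend on transcript length, which was not corrected.

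Epithelial genes outside the members were read from a list of 31, of which 29 were found. Their median was 7.85 CPM, near the 7.75 CPM of the 23 members other than type I and type II keratins, while the 16 keratins had a median of 109 CPM. Of the 29 genes, 22 were at or above 1 CPM (75.9%), near the 73.9% of all genes, and 15 lay above the median of all genes. The highest was klf17, at 264 CPM, which is also used in hatching gland and early blood and so is a poor marker of epidermis alone. The claudins cldnb and cldni, proteins of tight junctions, had 92.1 and 72.1 CPM, and cdh1, the epithelial cadherin, had 69.6 CPM. Genes of hemidesmosomes, which fix basal cells to the basement membrane, had mixed levels. The integrin gene itga6b had 8.14 CPM, above the median of the list, and the plectin gene plecb had 4.62 CPM. The integrin genes itga6l and itgb4 had 0.889 and 0.700 CPM, and the collagen genes col17a1a and col17a1b had 0.273 and 0.217 CPM. The range of the whole list was 0.0603 to 264 CPM. Since no comparison was made here, it was not tested whether epidermal cells were in the sort. What part they might have in the keratin levels was not tested either. Of 4 hatching gland genes 2 were found, the enzyme genes he1.1 and he1.2, at 129 and 70.8 CPM.

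Other intermediate filament genes, nuclear lamins among them, were read from a list of 22. Of these, 14 were found, with a median of 4.17 CPM. vim, the vimentin gene and the usual filament of mesenchymal and endothelial cells in mammals, had 6.48 CPM, and desma, a desmin gene of muscle, had 3.89 CPM. The highest were the nuclear lamin genes lmnb1 and lmnb2, at 213 and 131 CPM. lmnb1 thus lay above cyt1l, at 206 CPM, and lmnb2 above krt17, at 86.5 CPM. Of the cytoplasmic filament genes found in the list, none exceeded gfap, at 12.6 CPM, whereas 9 type I and type II keratins were above 80 CPM.

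**Figure D3:**
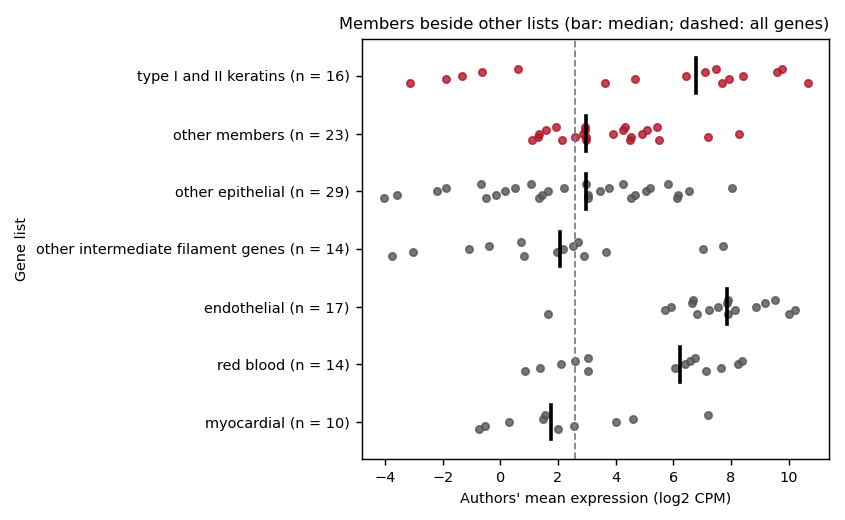
Authors' mean expression in log2 CPM (x axis) for the members (red, in 2 rows) and for the genes found of 5 other lists (grey), with 1 point per gene. Black bars are list medians and the dashed line is the median of all genes; the 16 type I and type II keratins spread from -3.15 to 10.67 log2 CPM, a wider range than that of the 17 endothelial genes.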

How the data were processed

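Libraries were amplified by the authors from 2 ng of RNA. Alignment to GRCz11 and counting per gene used Rsubread. Versions, the filter on low counts and the normalization are not given in the sources used here. The authors deposited 1 table from limma, and from it only the mean log2 CPM per gene was used. limma takes this mean over the libraries of a fit. These are read as the 6 libraries of the series, which the sources used here do not state. Its other columns hold the authors' comparison of the lines (log2 fold change, confidence limits, t-statistic, p-values and log-odds) and were not used. Values per library were not used, so library depths were not analysed, no difference between the lines was tested, and no interval is given. Symbols are those of the table, 14092 of 19722 genes having one. The gene name list matched 18622 identifiers and all 39 members. A gene of the marker lists counted as found only where exactly 1 gene of the table bore its name. Gene order came from the assembly GRCz12tu, which is not the build of the counts, so no coordinates are given. Keratin types were taken from gene names, since the planned comparison of proteins was not run. In a role of over 8 genes, the 8 highest and 3 lowest were to be named. All genes with a keratin name formed 1 role, so krt17, krt97, krt91, krt96, krtt1c19e, krt222 and krtcap2 were added after their values were seen. Members and lists were chosen with earlier results of these data known. The calculation was checked on a made-up table. Python 3.11.15, numpy 2.4.6, pandas 2.3.3 and matplotlib 3.10.9 were used.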

Additional observations from a re-analysis of the deposited data

How the results depend on the processing

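With 0.5 or 5 CPM in place of 1 CPM, 36 and 28 of the members were counted as expressed, against 35. The share of all genes was taken only at 1 CPM (73.9%). The counts at 0.5 and 5 CPM therefore have no such share beside them. With the current symbols of the gene name list, 6 genes joined and 3 left (dspa, grhl2b and krt96), giving 42. Of these, 36 reached 1 CPM, beside 73.9% of all genes. Those 3 left only because that list gives them as DSP, GRHL2 and a clone name, which the rule does not match. The median of the 42 genes was 4.09 log2 CPM against 4.27. Among genes at or above 1 CPM the median of the members was 4.51 log2 CPM, and that of all genes 3.82. The ratio of type I to type II keratins was 0.707. It was 0.984 without krt18 and krt4, the highest gene of each type. With current symbols it was 0.745, and the share of the 5 highest genes was 73.1% in place of 74.3%. These last 2 alternatives were chosen after seeing the data. Levels per coding length and sums without near-identical keratins were not run, because no coding lengths or protein sequences were used. No paired analysis was possible because the only values used were the authors' means over libraries, and for the same reason no library was left out. Genes at or below about 1 CPM rest on few reads, and their order is the least certain.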
